A study of Homo sapiens with 8 samples.

Results

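The epidermal differentiation complex is the cluster on the long arm of human chromosome 1 that holds the genes of the cornified envelope between 2 groups of S100 genes. It was taken here as hg19 chromosome 1 from 151950000 to 153650000, a stretch of 1.7 Mb running from S100A10 to S100A1, and a p63 region belonged to it when its midpoint lay inside. The locus held 33 distinct p63 regions of the 15267 listed in either of 2 human squamous carcinoma lines, 32 of 13829 in CAL27 and 21 of 5886 in SCC13. The definition used position alone and set no number, width or sharing of regions, but the locus was chosen with earlier results of these data known.

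CAL27 is an established line from a squamous carcinoma of the tongue and SCC13 one from a squamous carcinoma of the skin. Both are given as wild type and untreated, and chromatin of each was precipitated with an antibody to p63 in 2 replicates, beside 2 samples per line titled none (8 samples in 4 groups). CAL27 was grown in DMEM F:12 with 10% serum, and SCC13 in keratinocyte serum-free medium with 0.3 mM calcium chloride, so that line and medium cannot be told apart. Each line has 1 list of regions behind both p63 replicates. The lists hold positions only, with no score, height or depth, so there is no spread between replicates, and absence from a list does not show that p63 was not bound. The samples titled none have no list of their own, so no background level could be set beside the regions.

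Keratinocytes leave the basal layer, stop dividing and assemble a cornified envelope, a protein shell cross-linked by transglutaminases under the cell membrane. Involucrin (IVL) is an early component of that shell, loricrin (LORICRIN) its most abundant one, small proline-rich proteins (SPRR genes) act as cross-bridges, and late cornified envelope proteins (LCE genes) are added last. Filaggrin (FLG) packs keratin filaments and is broken down to the moisturising factors of the skin. S100 proteins are small calcium-binding proteins with EF hands: S100A8 and S100A9 pair to form calprotectin, S100A7 is psoriasin, S100A10 binds annexin A2, and S100A2 is made in basal keratinocytes. The transcription factor p63, encoded by TP63, maintains basal keratinocytes and is needed for their stratification.

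The order of genes in RefSeq (GRCh38.p14) placed 63 protein-coding genes from S100A10 to S100A1. They comprised 19 LCE genes, 16 S100 genes, 11 SPRR genes, 7 genes of the fused S100 type such as FLG, which join an S100 domain to long repeats, 8 other listed genes, among them IVL, LORICRIN and SMCP, which is named for sperm mitochondria, and 2 genes outside these lists, CRCT1 and KPLCE. All 19 LCE genes stood between FLG and IVL, and all 11 SPRR genes between IVL and S100A9. S100A11 stood between S100A10 and FLG, whereas S100A9, S100A8 and S100A7 stood between the SPRR genes and S100A2. RefSeq was used for names, order and promoter sequence; positions in hg19 were those given with the definition of the locus, 152.28 Mb for FLG, 152.88 Mb for IVL, 152.9 to 153.1 Mb for the SPRR genes and 153.53 Mb for S100A2. These positions are rounded to 10 kb, or 100 kb for the SPRR genes. Exons, introns and untranslated regions of hg19 were not analysed here.

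Promoters of named genes from both sides of the comparison are shown to compare the motifs in them; S100A10 is printed as one without a match. RefSeq promoters (GRCh38.p14, 250 bases before to 50 after a start) matched 59 of the 63 genes and all 10 named genes. Each line gives the last 190 bases before the start on the gene's own strand, which is the minus strand for FLG, S100A2 and S100A10 and the plus strand for the others. Capitals mark 3 motifs: the TATA box, searched as its form TATAAA; the AP-1 site, searched as TGACTCA on either strand and so also read as its reverse complement TGAGTCA; and 2 copies of CNNG with 6 bases between, where each N is A or T, the core of a p53-family site; S100A2 has a second promoter, without a match, that is not printed.
FLG: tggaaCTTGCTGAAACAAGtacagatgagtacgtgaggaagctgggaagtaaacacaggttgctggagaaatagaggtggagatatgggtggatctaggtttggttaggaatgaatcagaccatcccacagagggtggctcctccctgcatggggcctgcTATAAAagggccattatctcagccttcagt
IVL: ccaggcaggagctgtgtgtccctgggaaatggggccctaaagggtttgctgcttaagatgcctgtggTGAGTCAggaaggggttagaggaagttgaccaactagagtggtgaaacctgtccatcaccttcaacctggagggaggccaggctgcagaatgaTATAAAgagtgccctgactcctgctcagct
SPRR1A: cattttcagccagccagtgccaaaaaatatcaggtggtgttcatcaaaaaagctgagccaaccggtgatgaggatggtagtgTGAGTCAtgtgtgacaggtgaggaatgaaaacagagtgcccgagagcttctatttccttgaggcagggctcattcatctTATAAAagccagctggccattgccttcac
SPRR1B: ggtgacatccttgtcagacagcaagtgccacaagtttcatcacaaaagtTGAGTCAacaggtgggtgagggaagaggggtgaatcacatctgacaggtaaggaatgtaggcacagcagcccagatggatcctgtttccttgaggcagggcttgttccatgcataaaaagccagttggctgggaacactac
SPRR3: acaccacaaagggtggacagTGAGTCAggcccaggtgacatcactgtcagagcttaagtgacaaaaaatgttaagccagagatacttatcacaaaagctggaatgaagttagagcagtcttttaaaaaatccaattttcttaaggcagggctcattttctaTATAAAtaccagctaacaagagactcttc
S100A2: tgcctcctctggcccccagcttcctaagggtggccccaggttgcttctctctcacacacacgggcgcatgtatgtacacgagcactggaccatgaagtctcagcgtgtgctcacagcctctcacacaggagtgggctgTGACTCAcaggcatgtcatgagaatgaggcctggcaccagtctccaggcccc
S100A9: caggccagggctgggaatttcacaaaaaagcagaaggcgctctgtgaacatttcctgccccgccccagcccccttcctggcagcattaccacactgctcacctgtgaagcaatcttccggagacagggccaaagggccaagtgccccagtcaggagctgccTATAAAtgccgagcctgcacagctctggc
S100A10: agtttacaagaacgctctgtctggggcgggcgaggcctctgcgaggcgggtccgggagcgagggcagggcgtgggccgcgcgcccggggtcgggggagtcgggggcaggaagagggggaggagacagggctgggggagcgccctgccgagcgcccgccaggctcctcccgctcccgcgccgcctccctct

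The TATA box and the AP-1 site were frequent in these promoters, and the p53-family core was not. TATAAA on either strand was found in 33 of the 67 promoters of the locus (49.3%), all of protein-coding genes. The share was 11.5% of all 35116 promoters of the same length and 9.47% of the 22199 of protein-coding genes. Counted by gene it was 32 of 59, beside 1965 of all 15843 protein-coding genes with a promoter. Overlapping promoters of S100A8 held the same TATAAA and were counted separately. Genes of the same family were each counted, and their likeness was not allowed for. On the gene's strand, 28 matches in 28 genes began 33 to 25 bases before the start, and matches on both strands overlapped in KPRP and LCE1A. Of the named genes 7 of 10 had one: FLG, IVL, SPRR1A, SPRR3, S100A7, S100A8 and S100A9. TGACTCA on either strand was found in 11 of the 67 (16.4%), against 4.95% of all promoters and 4.01% of those of protein-coding genes. IVL, SPRR1A, SPRR1B, SPRR3 and S100A2 were the 5 named genes with it. In IVL it began 123 bases before the start and in SPRR1A 108 bases before it, and in S100A2 it lay closer, from 52 bases before the start. The loose p53-family core was found in 4 of the 67 (5.97%), against 4.79% of all and 3.99% of those of protein-coding genes, a share near the background. Of the named genes FLG had it, as CTTGCTGAAACAAG from 185 to 172 bases before the start. The stricter form, CATG as both copies, was in 0 of the 67, in 0.373% of all promoters and in 0.275% of those of protein-coding genes. These matches describe letters in reference sequence and were not placed against the listed regions, whose build differs. TATAAA and TGACTCA were chosen after values had been seen.

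The locus was densely listed in both lines. CAL27 had 18.8 regions per Mb there (95% exact Poisson interval 12.9 to 26.6) and SCC13 12.4 (7.65 to 18.9). The flanks of equal length had fewer: in CAL27 11 regions before and 16 after the locus, and in SCC13 7 before and 11 after. The density in the locus was 2.37 times that of both flanks together in CAL27 (95% exact interval 1.38 to 4.11; exact conditional binomial test, two-sided, adjusted p = 0.00251) and 2.33 times in SCC13 (1.18 to 4.65; the same exact test, adjusted p = 0.00990). This comparison was added after the data were seen, on a locus chosen with earlier results known, and it treats regions as independent. Its p-values are therefore a description only. The lines do not check each other either, since 20 of the 21 SCC13 regions of the locus were also in the CAL27 list. The first listed region outside lay 90.1 kb before the locus, and the next one after it 28.4 kb beyond.

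Set against consecutive windows of 1.7 Mb along all chromosomes, the locus stood at the upper end in both lists. The median of 1715 windows was 6 regions in CAL27 (quartiles 3 and 12) and 3 in SCC13 (quartiles 1 and 5). The 32 CAL27 regions of the locus were reached or passed by 4 windows (0.233%), up to 39 regions. The 21 SCC13 regions were reached by 0 windows, with a highest count of 19. Windows started at every listed region, a denser scan, reached 32 or more in CAL27 in 17 separate places, with up to 46, and in SCC13 none of 5858 such windows outside the locus passed 20. The locus was defined by its genes and chosen with earlier results known, so these ranks are a description.

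**Figure D1:**
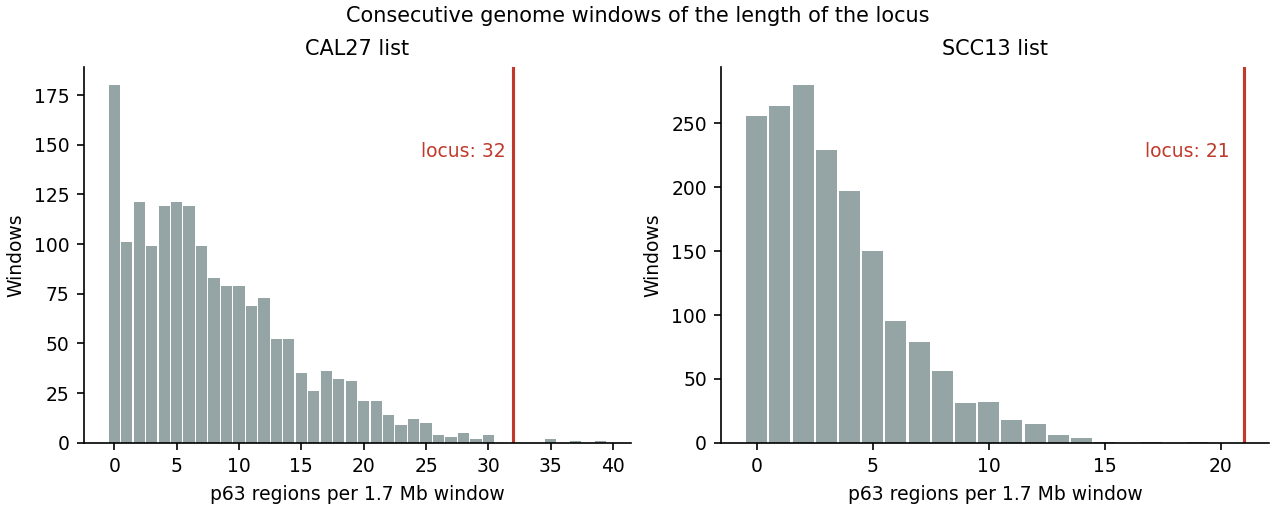
Number of consecutive 1.7 Mb windows (vertical axis) by the number of p63 regions they hold (horizontal axis), CAL27 on the left and SCC13 on the right; the red line is the locus. The 32 CAL27 regions of the locus lie near the end of the distribution, which reaches 39, and its 21 SCC13 regions lie beyond the highest window, at 19.

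Most p63 regions of the locus were listed in both lines. In SCC13, 20 of 21 regions were also in the CAL27 list, or 95.2% (95% exact binomial interval 76.2 to 99.9), beside 75.6% of the whole SCC13 list. In CAL27, 20 of 32 were also in the SCC13 list, or 62.5% (43.7 to 78.9), beside 32.2% of the whole CAL27 list. The borders of all 20 shared regions were identical in the lists, so each has the same width in both. How the borders came to be identical was not tested. Counts and widths of both lines are therefore not independent, and their likeness is not a replication. The CAL27 list was 1.52 times as long as the SCC13 list inside the locus and 2.35 times as long overall. Among 594 windows with at least 10 CAL27 regions, the median shared percentage was 32.9% and 9 windows (1.52%) were at or above 62.5%. The flanks had a high share too: 15 of their 30 distinct regions were in both lists (50.0%, 31.3 to 68.7), against 20 of 33 (60.6%) in the locus and 29.1% of all distinct regions. The 10.6 points between locus and flanks were not past the threshold (Fisher's exact test, two-sided, p = 0.453), so high sharing was not shown to be particular to the locus.

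Regions in the locus had larger median widths than their lists. The median width was 980.5 bp in CAL27, against 791 bp over its whole list, and 1166 bp in SCC13, against 862 bp. The flanks also had medians above those of the lists, 848 and 913.5 bp in CAL27 and 977 and 938 bp in SCC13, and locus and flanks were not tested against each other. Of the CAL27 regions, 22 of 32 exceeded the list's median, as did 17 of 21 in SCC13. Width and sharing went together over the whole lists, so the share was also read within width classes. Among CAL27 regions wider than the list's median, 72.7% (16 of 22; 49.8 to 89.3) were shared in the locus and 44.3% in the whole list. Among the narrower ones the values were 40.0% (4 of 10; 12.2 to 73.8) and 20.1%. In SCC13 the wider class, which held 17 of its 21 regions, was shared at 94.1% in the locus (71.3 to 99.9) and at 90.6% in the whole list, so locus and list lay close together there. The 4 narrower SCC13 regions of the locus were all shared, beside 60.6% of the list. The part of width in the sharing was not tested further.

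To compare cornified envelope genes with the S100 end, the locus was divided midway between the given positions. The S100A10 end ran to 152.115 Mb, the cornified envelope part from there to 153.315 Mb, and the S100 end on to 153.65 Mb. The map of regions along the locus shows where each lay.

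**Figure D2:**
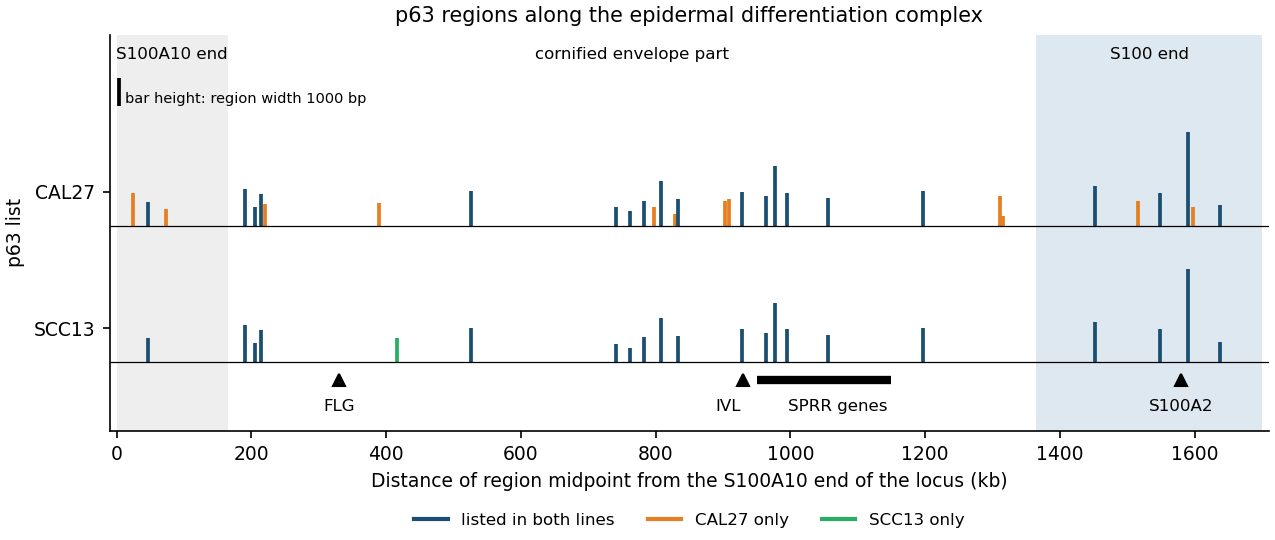
Position of each p63 region as its distance in kb from the S100A10 end of the locus (horizontal axis), in the CAL27 and SCC13 lists (rows); bar height is the width of the region in bp, colour the list or lists that hold it, triangles and the black bar gene positions, and shading the S100A10 end and the S100 end. The tallest bar in both rows is the 3420 bp region beside S100A2, and no region lies within 50 kb of the triangle for FLG, a rounded position.

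The cornified envelope part held 23 CAL27 regions and 16 SCC13 regions over 1.2 Mb, and the S100 end held 6 and 4 over 0.335 Mb. Density in CAL27 was 17.9 regions per Mb at the S100 end and 19.2 in the cornified envelope part, a ratio of 0.934 (95% exact interval 0.311 to 2.36; exact conditional binomial test, two-sided, adjusted p = 1.0). In SCC13 it was 11.9 and 13.3 per Mb, a ratio of 0.896 (0.218 to 2.78; the same exact test, adjusted p = 1.0). A difference between both parts was not detectable with so few regions, as the width of both intervals shows.

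**Figure D3:**
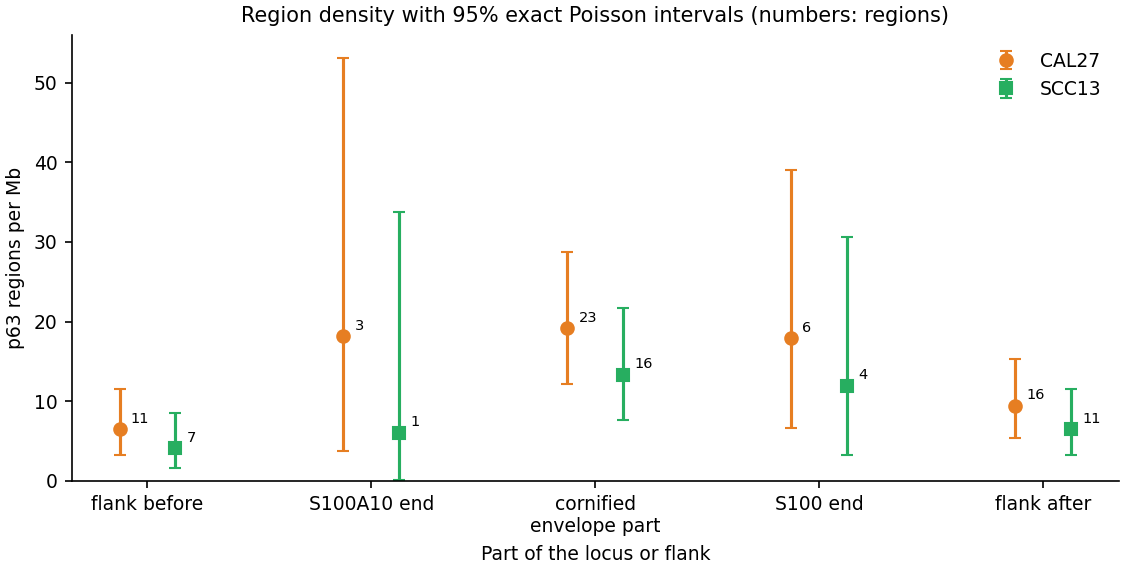
Density of p63 regions per Mb (vertical axis) in the 3 parts of the locus and in the flank on either side, CAL27 as circles and SCC13 as squares, with 95% exact Poisson intervals and the number of regions beside each point. The cornified envelope part and the S100 end lie at 19.2 and 17.9 per Mb in CAL27 and at 13.3 and 11.9 in SCC13, inside each other's intervals.

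No difference in sharing between both parts was detected, within wide limits. Of the distinct regions, 4 of 6 at the S100 end (66.7%, 22.3 to 95.7) and 15 of 24 in the cornified envelope part (62.5%, 40.6 to 81.2) were in both lists. The difference of 4.17 points was not past the threshold (Fisher's exact test, two-sided, p = 1.0). At the S100A10 end, 1 of 3 was shared.

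Regions at the S100 end were 1.27 times as wide as those of the cornified envelope part in CAL27, with geometric means of 1188 and 939 bp (exact permutation test of log2 width, two-sided, n = 6 and 23, adjusted p = 0.268). In SCC13 the ratio was 1.37, with 1464 and 1071 bp (exact permutation test, n = 4 and 16, adjusted p = 0.268). The 4 SCC13 regions of the S100 end were also in the CAL27 list with the same widths, so the ratios are not independent. Neither test was past the threshold, and both ratios rested on the 3420 bp region beside S100A2. Without it the ratios were 1.02 in CAL27 and 1.03 in SCC13 (exact permutation test, adjusted p = 0.928 for each).

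**Figure D4:**
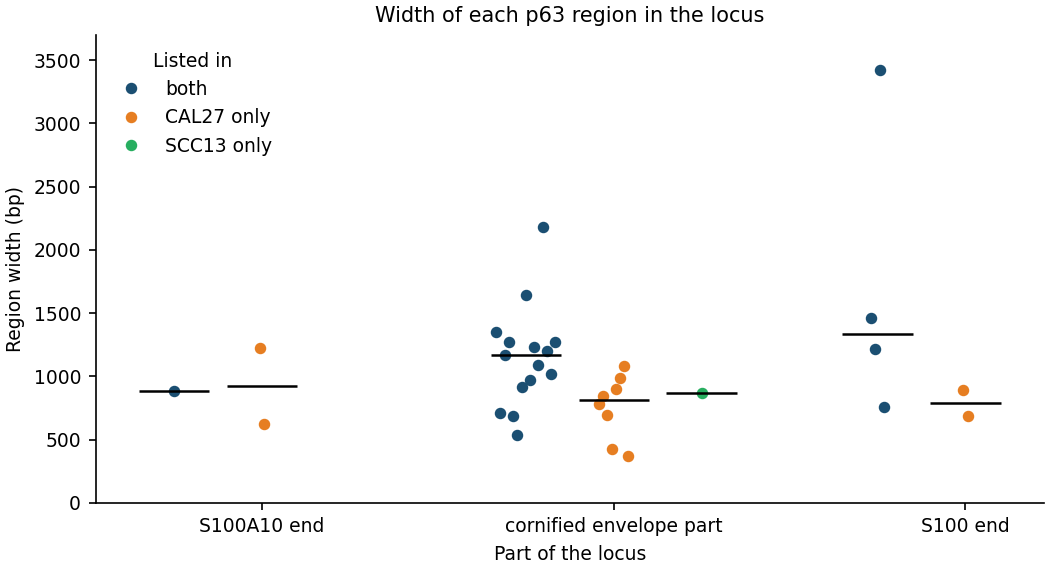
Width in bp (vertical axis) of each of the 33 p63 regions, by part of the locus (horizontal axis) and by the list or lists that hold it (colour); black bars are medians. The widest point is the 3420 bp region of the S100 end, and shared regions of the cornified envelope part have a median of 1166 bp against 811.5 bp for CAL27-only regions.

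From S100A10 to FLG the regions lay in 2 places. The S100A10 end had 3 regions, a CAL27-only one of 1220 bp at 151973681 to 151974900, a shared one of 885 bp at 151996296 to 151997180 and a CAL27-only one of 620 bp at 152023642 to 152024261. The next 4 stood close together. Trichohyalin (TCHH), repetin (RPTN) and hornerin (HRNR) stand between S100A10 and FLG in RefSeq order, and no region was assigned to them. A shared region of 1354 bp at 152139623 to 152140976 was followed by the group with the most regions of the locus, 3 within 14.9 kb at 152155338 to 152170209. That group held shared regions of 707 and 1166 bp and a CAL27-only one of 781 bp.

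Around the given position of FLG the lists were sparse. Neither line had a region within 50 kb of 152.28 Mb, which is a rounded point; distances from the ends of the gene were not measured. The nearest in CAL27 was a CAL27-only region of 842 bp at 152339645 to 152340486, with its midpoint 60.1 kb from that point. The nearest in SCC13 was 85.5 kb away, at 152365082 to 152365953, and at 872 bp it was the SCC13-only region of the locus, the single one. That point lay in a gap of 170 kb between midpoints in CAL27 and 202 kb in SCC13. Whether either region acts on FLG or on nearby genes such as FLG2 and CRNN cannot be read from positions.

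Between FLG and IVL, where all LCE genes stand, CAL27 had 12 regions and SCC13 had 8, with 7 in both. They were unevenly spread. After a shared region of 1272 bp at 152474884 to 152476155 came the longest gap of CAL27, 215 kb between midpoints, which was as empty in SCC13. Beyond it, 7 regions of CAL27 followed from 152690490 to 152784113, 5 of them shared, with a widest of 1639 bp at 152757921 to 152759559. The 2 CAL27-only ones were 693 and 423 bp wide. A pair of CAL27-only regions of 903 and 990 bp stood at 152852356 to 152860138, within 50 kb of the given position of IVL.

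The positions of IVL and the SPRR genes fell in a run of regions that were all shared. This run was picked after values had been seen, in a locus where 20 of 33 distinct regions were shared. From 152877535 to 153147819, a span of 270 kb, CAL27 and SCC13 listed the same 6 regions and no other, with widths from 1015 to 2180 bp and a median of 1217 bp. The first, of 1231 bp at 152877535 to 152878765, lay 1.85 kb from the given position of IVL, less than the 10 kb to which that position is rounded. Within 50 kb of IVL there were 5 CAL27 regions and 3 SCC13 regions. The run was not evenly filled: a gap of 141 kb between midpoints, from 153006316 to 153146551, held no region of either list. That gap began inside the SPRR positions, given as 152.9 to 153.1 Mb.

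Within the SPRR positions, 4 regions were listed in both lines. They were a region of 1089 bp at 152913641 to 152914729, one of 2180 bp at 152925891 to 152928070, one of 1203 bp at 152944702 to 152945904 and one of 1015 bp at 153005301 to 153006315. The 2180 bp region was the second widest of the locus and stood at rank 79 by width in the CAL27 list and 56 in the SCC13 list. SPRR1A, SPRR3 and SPRR1B stand in this order along the chromosome, and with SPRR positions rounded to 100 kb no region was assigned to a single one of them. The last region of the run, of 1268 bp at 153146552 to 153147819, lay 47.2 kb past the last SPRR position.

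After the SPRR genes both lists thinned out. The longest gap of SCC13, 255 kb between midpoints, ran from 153147820 to 153401689. In RefSeq order, LORICRIN and the peptidoglycan recognition genes PGLYRP3 and PGLYRP4 stand between the SPRR genes and S100A9. CAL27 had 2 regions inside that gap, of 1084 bp and 368 bp at 153260669 to 153266179, and neither was in the SCC13 list. The 368 bp region was the narrowest of the locus.

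The S100 end opened with a shared region of 1462 bp at 153401690 to 153403151. S100A9, S100A8 and S100A7 stand between the SPRR genes and S100A2 in RefSeq order, and without an hg19 position for each no region was assigned to them. A CAL27-only region of 894 bp at 153465638 to 153466531 and a shared region of 1215 bp at 153497946 to 153499160 followed before S100A2.

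Beside S100A2 lay the widest region of the locus. It spanned 3420 bp at 153537808 to 153541227, in both lists, and stood at rank 2 by width in each. Its midpoint lay 9.52 kb from the given position of S100A2. That position is rounded to 10 kb, so the distance is approximate. Distances from the ends of the gene were not measured. A CAL27-only region of 683 bp at 153546672 to 153547354 followed within 12.5 kb, and the last region of the locus was a shared one of 757 bp at 153587667 to 153588423. Within 50 kb of S100A2 there were 3 CAL27 regions, 2 of them in SCC13. For S100A10, at the other end of the locus, no position of its own was given, so its distance to a region was not measured. The first CAL27 region lay 24.3 kb and the first SCC13 region 46.7 kb from the start of the locus.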

How the data were processed

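Human chromatin from the CAL27 and SCC13 lines was immunoprecipitated for p63, as the protocols in the labels describe. Named in the submitters' processing notes are hg19, MACS2, Bowtie2 and SAMtools 1.8, with no role stated. The threshold for a peak and the handling of replicates are not given in the sources used. For each line the authors deposited a table of chromosome, start and end in bp, here printed counted from 1. No depth is given, so intervals cover counting error only.

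Regions were shared when they overlapped by at least 1 bp. Rates were compared by an exact conditional binomial test, shares by Fisher's exact test and log2 widths by exact permutation, all two-sided, with Benjamini-Hochberg adjustment over both lists for rates and widths and a threshold of 0.05. Every test assumes independent regions, and its p-value is too small if neighbouring regions are bound together. Groups joined midpoints within 12500 bp. Consecutive windows began at position 0 of each chromosome and ended at the last full window before its last region. Named were the 10 genes of the locus's definition, the 5 widest regions, SCC13-only regions, the largest group and those beside the longest gap; other regions were named after their values were seen. The members, borders, lists and tests were chosen with earlier results of these data known. A planned description of proteins was not made. Functions were tested on simulated data. Software was Python 3.11.15 with pandas 2.3.3, scipy 1.17.1 and numpy 2.4.6, and matplotlib 3.10.9 for figures.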

Additional observations from a re-analysis of the deposited data

How the results depend on the processing

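No paired analysis was possible because each line has 1 list behind both replicates, which also kept replicates from being left out in turn. No test of the S100 end against the cornified envelope part crossed the threshold under any of the alternatives run (borders moved by 100 kb, the part from FLG to the last SPRR position, neighbours counted once, wider regions only, both ends counted as S100, and, added later, the widest region left out). The direction of 2 results was not stable. The density ratio in CAL27, 0.934, was 1.15 with the border moved towards S100A2 and 1.05 with neighbours counted once. The difference in sharing, 4.17 points, was -18.2 with the border moved towards SPRR and -4.0 towards S100A2. Each of these settings counts other regions or other lengths; the cause was not tested further. Groups of 2 or more regions numbered 6 in CAL27, against 2 when joined within 5000 bp; in SCC13 they numbered 1, against 0 within 5000 bp and 4 within 25000 bp. Promoters with a p53-family match numbered 0 with CATG in both copies and 4 with the looser core. The other 38 values kept their direction and side of the threshold, or stayed within 1.5 times or their interval. Not all of them could move: with identical borders of the shared regions, asking for an overlap of 50% could not change the sharing. Placement by any overlap with the locus counted the same number of regions. Depth is unknown, which limits every statement on a missing region.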

Other observations

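Promoter motifs were also counted in the gene families of the locus. TATAAA, which 11.5% of all promoters hold, was in promoters of 1965 of all 15843 protein-coding genes with a promoter. In the locus, counted by gene, it was found in 8 of 9 SPRR genes and 5 of 7 genes of the fused S100 type. It was also in 9 of 18 LCE genes, 7 of 16 S100 genes and 3 of the 8 other listed genes with a promoter in RefSeq. It began 30 or 31 bases before the start in TCHH, RPTN, HRNR, FLG and CRNN, the 5 fused-type genes that had it. The AP-1 site, which 4.95% of all promoters and 4.01% of those of protein-coding genes hold, was found in 5 of 9 SPRR promoters. These were SPRR1A, SPRR1B, SPRR3, SPRR2A and SPRR2F. The AP-1 site was in 0 of 19 LCE promoters and 0 of 7 of the fused type, where a share at either background would give few or none. Among S100 genes it was found in S100A2, S100A3 and S100A5, which stand close together, and among the others in IVL, LORICRIN and PRR9. The p53-family core was found in LCE1E, SMCP, S100A4 and FLG. These counts were made after values had been seen and no difference between families was tested.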
